A study of Rattus norvegicus with 60 samples.

Results

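The livers compared were those of male F344/N rats given DMPT (N,N-dimethyl-p-toluidine, a polymerization accelerator in dental resins and bone cements) at 60 mg/kg per day, and those of rats given 20 mg/kg per day. Both groups had 5 arrays, 10 of the 60 arrays in the series, chosen by the dose and chemical in the sample titles. The animals were 5 to 6 weeks old at the start, were housed 2 per cage, and received the chemical by gavage in corn oil at 2.5 ml/kg on 5 consecutive days. The whole series holds DMPT and p-toluidine, each as corn oil vehicle and at 1, 6, 20, 60 and 120 mg/kg, with 5 arrays per dose. RNA came from the left lateral liver lobe and was measured on Affymetrix rat arrays as log2 signals. The labels do not say that each array is a separate animal, and p-values then cover the spread between these arrays, which may be technical.

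Liver cells meet aromatic amines with oxidation by cytochrome P450 enzymes and with conjugation to glutathione, sulfate or glucuronic acid. The transcription factor NRF2 (Nfe2l2) raises many of the reducing and conjugating enzymes when reactive products accumulate, through the antioxidant response element in their promoters. Resting adult hepatocytes rarely divide, and mitotic genes become detectable in bulk liver RNA when a small share of cells enters the cycle, as in young growing rats or during repair.

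At 60 mg/kg, compared with 20 mg/kg, a few detoxification enzymes, among them Akr7a3, Nqo1 and Ptgr1, and cell division genes such as Top2a and Plk1 rose, while a few receptor, membrane and hormone-handling genes such as Pdgfra, Emp1 and Dio1 fell. In the limma fit of the 30 DMPT arrays, 34 of 31042 probe sets (0.11%) were called at a Benjamini-Hochberg adjusted p of at most 0.05. Of these, 25 were higher at 60 mg/kg (0.0805% of those tested) and 9 were lower (0.029%). They comprised 28 named genes and 6 probe sets without a single gene symbol. The rises had a median of 0.70 and the falls a median of -0.52 on the log2 scale, and 21 of the 34 were at least 1.5-fold and 3 at least 2-fold. In 26 of the 34 the arrays of both doses did not overlap, which held for 2.19% of all probe sets. The threshold fell in a dense part of the ranking: the largest called adjusted p was 0.0482, the next probe set had 0.0525, and 151 probe sets (0.486%) had an adjusted p of at most 0.1.

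The number of calls depended on single arrays. Of the 60 mg/kg arrays, replicates 3 and 5 had a narrower spread of values than the rest, with interquartile ranges of 3.01 and 3.11 log2 units, and they separated from the other 8 arrays on the first principal component, which held 28.9% of the variance. Without all 5 narrow DMPT arrays (these 2, 2 at 120 mg/kg and 1 at 6 mg/kg), 33 probe sets were called, 32 of them higher, and 15 were the same as before. Leaving out 60 mg/kg replicates 1, 2, 3 and 5 gave 13, 14, 167 and 2 calls, and leaving out 20 mg/kg replicates 1, 2 and 5 gave 1, 4 and 3 calls. All 34 called probe sets kept their direction in each of these fits. Akr7a3 was the call kept in all 10 fits with an array left out, and Gucy2c was lost in 1 fit, the one without 20 mg/kg replicate 1. The other 32 calls were lost in 3 to 8 of the 10 fits.

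The largest called change was in Akr7a3, an aflatoxin aldehyde reductase known as an NRF2 target in rat liver. Its log2 signal was 10.56, 10.65, 10.01, 10.62 and 10.62 at 60 mg/kg, against 9.02, 9.24, 9.26, 9.06 and 7.999 at 20 mg/kg. Every 60 mg/kg array was above every 20 mg/kg array, and the change was 1.57 ± 0.22 (SE), or 2.98-fold (adjusted p = 0.00184). Nqo1, the quinone reductase NAD(P)H dehydrogenase 1, reached 7.69, 7.86, 6.98, 7.62 and 7.41 at 60 mg/kg, against 6.19, 6.49, 6.86, 6.59 and 6.27 at 20 mg/kg. Its rise was 1.03 ± 0.18, or 2.04-fold, with no overlap (adjusted p = 0.0247). Ptgr1, which reduces reactive alkenals and prostaglandins, was at 10.27, 10.01, 9.68, 9.86 and 9.97 at 60 mg/kg, against 9.41, 9.52, 9.46, 9.36 and 9.09 at 20 mg/kg. It rose by 0.59 ± 0.11, again with separate groups (adjusted p = 0.0247). All 3 genes remained called without the narrow arrays.

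Along the whole dose series these enzymes were at different stages. Akr7a3 averaged 8.14 in vehicle livers and, at 6, 20, 60 and 120 mg/kg, 9.17, 8.92, 10.49 and 11.83, so the mean at 20 mg/kg was no higher than that at 6 mg/kg. Nqo1 stayed between 6.15 and 6.48 from vehicle to 20 mg/kg, then reached 7.51 at 60 mg/kg and 8.87 at 120 mg/kg. Ptgr1 increased at each dose, through 9.37 at 20 mg/kg and 9.96 at 60 mg/kg to 10.87 at 120 mg/kg, and was already 0.66 above vehicle at 20 mg/kg (adjusted p = 0.000426).

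**Figure D1:**
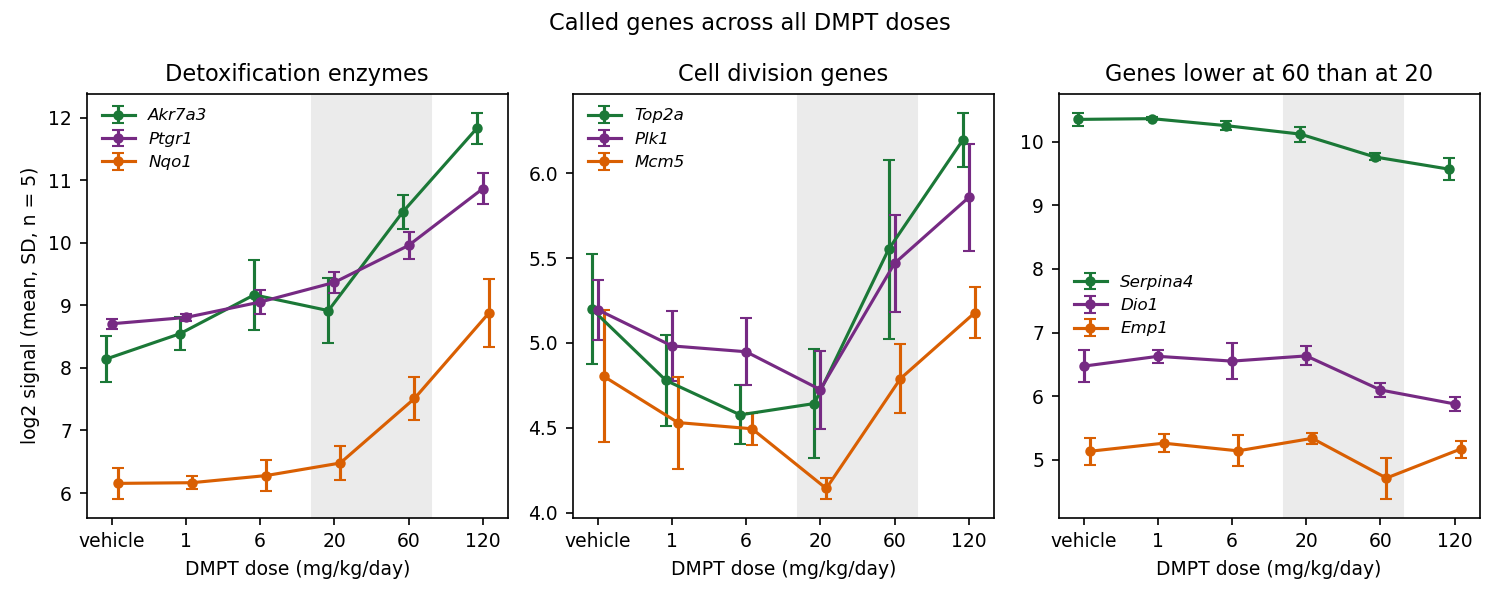
Mean log2 signal (vertical axis, bars SD, n = 5 arrays) at each DMPT dose (horizontal axis, mg/kg/day, unevenly spaced doses drawn at even steps) for 9 called genes, with the 20 and 60 mg/kg groups shaded. Akr7a3 reached 10.49 at 60 mg/kg against 8.92 at 20 mg/kg, Mcm5 was at its lowest, 4.14, at 20 mg/kg, and Emp1 was at its lowest, 4.71, at 60 mg/kg.

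Of 35 measured NRF2 target genes, 3 were called higher (Akr7a3, Nqo1 and Ptgr1) and none lower, against 0.134% of all genes called higher. A further 9 were higher at an unadjusted p under 0.05, making 12 of 35, against 5.68% of all genes. At that level 2 members were lower, against 7.91% of all genes. A positive difference was found in 24 of 35, against 47.6% of all genes, and the list median was 0.12 against -0.01 over all 14217 genes. With arrays centred on their medians and scaled to one interquartile range, 5 were called and the list median was 0.23. Without 60 mg/kg replicate 5, or without 20 mg/kg replicate 1 or 5, 1 member was called. Gstp1, the pi-class glutathione S-transferase that marks altered foci in rat liver, had the second largest difference of the list. Its signal was 11.59, 11.75, 11.33, 11.67 and 11.65 at 60 mg/kg, against 9.37, 10.55, 11.01, 10.81 and 9.62 at 20 mg/kg. The groups did not overlap, but the difference of 1.32 ± 0.34 did not pass (adjusted p = 0.103). The SD was 0.16 at 60 mg/kg and 0.735 at 20 mg/kg, and 1.21 at 6 mg/kg, a group that shares the pooled error of the fit. Most of its increase over the vehicle mean of 6.11 was already present at 20 mg/kg, where it averaged 10.27. Gpx2, an epithelial glutathione peroxidase, differed by 0.63 ± 0.20 without passing (adjusted p = 0.203). None of the 22 glutathione S-transferases was called, and their median difference was 0.01.

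Aldo-keto reductases other than Akr7a3 were not called: of 15 measured, 1 was called higher, against 0.134% of all genes, and the list median was 0.03. Akr1b10 differed by 0.30 ± 0.11 (adjusted p = 0.28). Akr1b7 differed by 0.86 ± 0.79 and Akr1c15 by -0.21 ± 0.15, both less than the threshold required. Of 22 glucuronosyltransferases and sulfotransferases, Ugt2b7 was called higher, again against 0.134% of all genes. It was at 2.89, 4.01, 2.92, 3.49 and 3.19 at 60 mg/kg, against 2.49, 2.36, 2.59, 2.51 and 2.17 at 20 mg/kg, a rise of 0.88 ± 0.18 at the low end of the signal range (adjusted p = 0.0394). Among 9 targets of the aryl hydrocarbon receptor, Nqo1, which is shared with the NRF2 list, was called higher, against the same 0.134% of all genes. Cyp1a1, the inducible P450 of that receptor, was 5.20, 3.67, 4.59, 3.62 and 3.99 at 60 mg/kg, against 3.55, 3.73, 4.06, 2.83 and 3.24 at 20 mg/kg. These groups overlapped (adjusted p = 0.4). Cyp1b1 differed by 0.39 ± 0.10 with separate groups (adjusted p = 0.0858), whereas the constitutive Cyp1a2 differed by -0.33 ± 0.11 (adjusted p = 0.24).

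**Figure D2:**
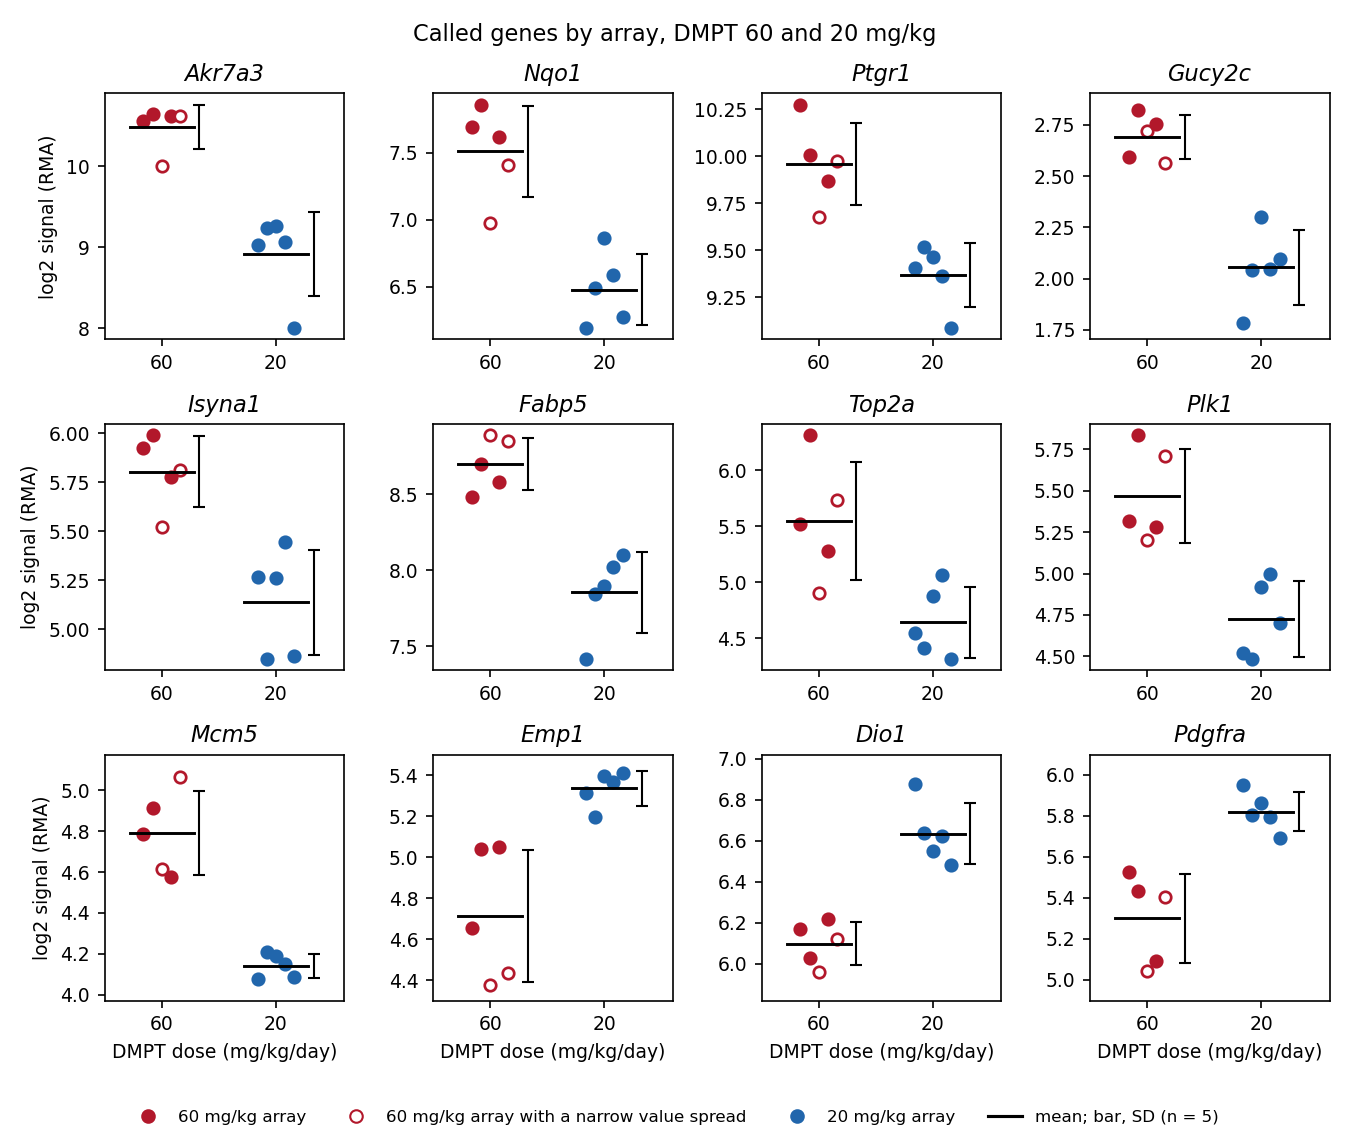
Log2 signal (vertical axis) of 12 called genes on each array at 60 mg/kg and at 20 mg/kg (horizontal axis), with group means and SD (n = 5) and open circles for the 60 mg/kg arrays with a narrow spread of values. Akr7a3 at 60 mg/kg lay between 10.01 and 10.65, above all 20 mg/kg arrays, whereas Top2a at 60 mg/kg, between 4.91 and 6.31, overlapped the 20 mg/kg arrays.

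Cell division genes made up the other named group among the rises. Of 77 measured genes of mitosis and DNA replication, 6 were called higher and none lower, again against 0.134% of all genes. As many as 65 were higher at an unadjusted p under 0.05, again against 5.68% of all genes, and 76 had a positive difference. The list median was 0.65. All 60 mg/kg arrays were above all 20 mg/kg arrays in 3 of the 77, against 0.682% of all genes. The members ranged from -0.003 for Cenpa, the single negative difference, named after its value was seen, to 1.18 for Hmmr.

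The promoters of the 4 called cell division genes below are shown because genes of this group often carry CCAAT boxes, bound by the factor NF-Y, and a cell cycle homology region (CHR). They are the 250 bases before the RefSeq transcript start in build GRCr8, 5′ to 3′ on the gene's strand, from chr10:84473094-84473343 for Top2a (minus strand), chr1:186147408-186147657 for Plk1 (plus strand), chr10:25665216-25665465 for Hmmr (minus strand) and chr19:13488563-13488812 for Mcm5 (plus strand). Capitals mark CCAAT and the CHR letters TTTGAA or TTCGAA, searched on both strands (ATTGG and TTCAAA on the other); no CCAAT and CHR match overlapped.
Top2a: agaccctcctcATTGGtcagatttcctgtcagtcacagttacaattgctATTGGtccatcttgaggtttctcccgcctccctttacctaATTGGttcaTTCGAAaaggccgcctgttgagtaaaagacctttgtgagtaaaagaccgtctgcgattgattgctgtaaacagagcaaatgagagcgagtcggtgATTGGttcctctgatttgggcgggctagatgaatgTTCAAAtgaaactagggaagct
Plk1: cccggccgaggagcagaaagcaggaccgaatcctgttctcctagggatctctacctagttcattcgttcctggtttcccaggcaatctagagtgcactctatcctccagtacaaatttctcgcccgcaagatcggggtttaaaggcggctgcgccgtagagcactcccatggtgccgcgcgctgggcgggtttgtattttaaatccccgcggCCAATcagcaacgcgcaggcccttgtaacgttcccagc
Hmmr: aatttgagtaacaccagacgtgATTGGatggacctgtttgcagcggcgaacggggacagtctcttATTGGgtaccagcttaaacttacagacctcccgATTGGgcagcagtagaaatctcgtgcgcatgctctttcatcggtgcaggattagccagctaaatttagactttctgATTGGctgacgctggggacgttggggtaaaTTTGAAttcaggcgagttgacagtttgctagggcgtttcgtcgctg
Mcm5: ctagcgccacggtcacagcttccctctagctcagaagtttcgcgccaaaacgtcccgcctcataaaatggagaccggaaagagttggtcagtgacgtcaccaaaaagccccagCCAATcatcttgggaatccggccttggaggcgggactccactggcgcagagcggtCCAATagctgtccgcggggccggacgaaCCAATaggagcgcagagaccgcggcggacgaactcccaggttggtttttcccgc
Top2a had 4 CCAAT and 2 CHR matches, Hmmr 4 and 1, Mcm5 3 and 0, and Plk1 1 and 0. Of the called cell division genes whose promoters are not printed, Clspn had 2 CCAAT and 0 CHR matches, Melk had neither, and Pbk had no such window. Over the 66 cell division genes with such a promoter, 71.2% held CCAAT and 34.8% held CHR letters, against 34.3% and 17.3% of all 27457 promoters of this length. For the NRF2 targets the antioxidant response element core, TGACNNNGC on either strand, was present in 22.6% of 31 promoters, against 10.2% of all. Among the called rises, 13 had such a promoter, of which 61.5% held CCAAT, 23.1% held CHR letters and 7.69% held the antioxidant response element core. This core was not found in these windows of Akr7a3 and Nqo1, and Ptgr1 had no such window. A match describes letters and not a bound site.

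Top2a, the topoisomerase that untangles DNA in dividing cells, was at 5.52, 6.31, 4.91, 5.28 and 5.73 at 60 mg/kg, against 4.55, 4.41, 4.88, 5.07 and 4.32 at 20 mg/kg. The groups overlapped in 1 array of the higher dose and 1 of the lower, and the rise was 0.91 ± 0.18 (adjusted p = 0.0391). A dimmer probe set of Top2a differed by 1.00 ± 0.22 without passing (adjusted p = 0.0549). Plk1, the polo-like kinase of mitotic entry, was at 5.32, 5.84, 5.20, 5.28 and 5.71 at 60 mg/kg, against 4.52, 4.48, 4.92, 5.00 and 4.70 at 20 mg/kg. It did not overlap and rose by 0.74 ± 0.14 (adjusted p = 0.0284). Mcm5, a subunit of the replicative helicase, was at 4.78, 4.91, 4.62, 4.57 and 5.06 at 60 mg/kg, against 4.08, 4.21, 4.19, 4.15 and 4.09 at 20 mg/kg. This rise of 0.65 ± 0.13 had the tightest 20 mg/kg group of these genes (adjusted p = 0.0391).

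The mitotic kinases Pbk and Melk rose by 0.94 ± 0.19 and 0.77 ± 0.16, and Clspn, the claspin adaptor of the replication checkpoint, by 0.66 ± 0.13 (adjusted p = 0.0391 for each). For Hmmr, a spindle-associated hyaluronan receptor, the called probe set rose by 1.10 ± 0.23, while the brighter probe set that stands for the gene in the list differed by 1.18 ± 0.28 without passing (adjusted p = 0.0722). Spc25, a kinetochore subunit, differed by 1.17 ± 0.26 (adjusted p = 0.0554), the proliferation marker Mki67 by 1.09 ± 0.27 (adjusted p = 0.0873) and the mitotic kinesin Kif20b by 1.03 ± 0.27 (adjusted p = 0.114). The errors of these 4 listed differences were larger than those of the 6 called members of the list. Outside the list, Pmf1, a kinetochore component, rose by 0.57 ± 0.12 and Tube1, epsilon tubulin, by 0.45 ± 0.09.

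The cell division list moved with single arrays. Its mean log2 signal was 4.81, 5.45, 4.28, 4.74 and 5.16 at 60 mg/kg, against 4.13, 4.20, 4.49, 4.53 and 4.06 at 20 mg/kg. Replicates 2 and 5 were the highest at 60 mg/kg, and replicate 3 lay within the 20 mg/kg range. Without 60 mg/kg replicate 3, 39 of the 77 genes were called, and without 60 mg/kg replicate 1 a single gene. Without 60 mg/kg replicate 2 or 5, or without 20 mg/kg replicate 1, 2 or 5, none was called. Across all fits with an array left out, the list median stayed between 0.46 and 0.81 and at least 75 differences stayed positive. Without the narrow arrays 7 were called and the median was 0.72. Arrays centred on their medians gave 0 calls in limma, with 62 of the 77 higher at an unadjusted p under 0.05, against 624 of all 14217 genes. The fit of the 10 arrays alone gave 1 call and the beta-actin 3′ bias covariate 23, with medians of 0.65 and 0.72.

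Between 20 mg/kg and vehicle, 4 of the 77 cell division genes were called lower and none higher, against 1.59% of all genes called lower, and 75 differences were negative. The list's median difference was -0.41 for 20 mg/kg minus vehicle, 0.21 for 60 mg/kg minus vehicle and 0.29 for 120 minus 60 mg/kg, and these contrasts share arrays with the step. Mcm5 averaged 4.80 in vehicle livers and, at 1, 6, 20, 60 and 120 mg/kg, 4.53, 4.49, 4.14, 4.79 and 5.18. It was lower at 20 mg/kg than in vehicle livers by a called amount (-0.66, adjusted p = 0.00417) and differed by -0.01 between 60 mg/kg and vehicle. Top2a averaged 5.20 in vehicle livers and, at 1, 6, 20, 60 and 120 mg/kg, 4.78, 4.58, 4.64, 5.55 and 6.19, with its lowest mean at 6 mg/kg. Its difference of -0.56 between 20 mg/kg and vehicle did not pass (adjusted p = 0.102), nor did that of 0.35 between 60 mg/kg and vehicle (adjusted p = 0.332). Melk passed against vehicle at 60 mg/kg (0.52, adjusted p = 0.044).

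The remaining rises came from other functions. Gucy2c, guanylate cyclase C, the receptor for guanylin peptides, was at 2.59, 2.82, 2.72, 2.75 and 2.57 at 60 mg/kg, against 1.79, 2.04, 2.30, 2.05 and 2.10 at 20 mg/kg. It rose by 0.64 ± 0.10 without overlap (adjusted p = 0.0152), although at signals near the low end of the array. Isyna1, which makes inositol phosphate from glucose phosphate, was at 5.92, 5.99, 5.52, 5.78 and 5.81 at 60 mg/kg, against 5.27, 4.85, 5.26, 5.45 and 4.86 at 20 mg/kg, a rise of 0.67 ± 0.13 (adjusted p = 0.0278). Fabp5, a fatty acid binding protein, was at 8.48, 8.70, 8.89, 8.58 and 8.85 at 60 mg/kg, against 7.42, 7.84, 7.90, 8.02 and 8.10 at 20 mg/kg. The groups were apart by 0.84 ± 0.15 (adjusted p = 0.0247). Fabp5 averaged 8.29 in vehicle livers and, at 6 and 20 mg/kg, 7.66 and 7.86. Its difference of -0.43 between 20 mg/kg and vehicle did not pass (adjusted p = 0.138).

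Car2, carbonic anhydrase 2, was at 6.87, 7.66, 6.82, 6.64 and 7.34 at 60 mg/kg, against 6.04, 6.06, 6.51, 6.42 and 6.16 at 20 mg/kg. It rose by 0.83 ± 0.17 with separate groups (adjusted p = 0.0391) and reached 8.58 at 120 mg/kg. Car2 was the called member of 20 erythroid genes, against 0.134% of all genes called higher. The median difference of these genes was 0.04, and the part of Car2 in a change of red cell content was not tested. Ttc39a rose by 0.77 ± 0.15, the calcium-binding protein gene S100g by 0.55 ± 0.11 and Ccdc92 by 0.50 ± 0.11, each with separate groups. The signals of Ttc39a and S100g were low, at most 3.48 and 2.96 on the 10 arrays, and S100g was lost in 8 of the 10 fits with an array left out.

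The 9 called falls were all under 2-fold. Dio1, the deiodinase that activates thyroid hormone in liver, was at 6.17, 6.03, 5.96, 6.22 and 6.12 at 60 mg/kg, against 6.88, 6.64, 6.55, 6.62 and 6.48 at 20 mg/kg. The groups were separate, and the gene fell by 0.54 ± 0.11 on the log2 scale (adjusted p = 0.0391). Serpina4, which encodes the protease inhibitor kallistatin secreted by hepatocytes, was at 9.79, 9.68, 9.77, 9.83 and 9.75 at 60 mg/kg, against 10.26, 10.22, 10.03, 9.99 and 10.11 at 20 mg/kg. It was 1.28-fold lower at 60 mg/kg, without overlap (adjusted p = 0.0391). Both genes had lower means still at 120 mg/kg, 5.88 and 9.57, but these differences from 60 mg/kg did not pass (adjusted p = 0.627 and 0.402).

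Emp1, an epithelial membrane protein, was at 4.66, 5.04, 4.38, 5.05 and 4.44 at 60 mg/kg, against 5.31, 5.20, 5.40, 5.37 and 5.41 at 20 mg/kg. It was 1.54-fold lower at 60 mg/kg (adjusted p = 0.0381), yet its mean at 120 mg/kg, 5.17, was close to the vehicle mean of 5.13. The lowest 2 Emp1 values were on the narrow arrays. Cyfip2, a subunit of the WAVE actin regulator, was at 2.70, 3.16, 2.72, 2.50 and 2.61 at 60 mg/kg, against 3.29, 3.37, 3.33, 3.51 and 3.53 at 20 mg/kg. It had the largest called fall among the named genes, -0.67 ± 0.14 (adjusted p = 0.0482), and had already fallen at 20 mg/kg against vehicle (-0.77, adjusted p = 0.00231). Vipr1, a receptor for vasoactive intestinal peptide, fell by 0.39 ± 0.08, Cldn14, a tight junction claudin, by 0.41 ± 0.08 and Klf7, a zinc finger transcription factor, by 0.40 ± 0.07. Chsy3, a chondroitin sulfate synthase, differed by -0.43 ± 0.09 and Igfbp3, a carrier of insulin-like growth factors, by -0.63 ± 0.14. Both had separate groups but did not pass (adjusted p = 0.0525 and 0.0549). Signals of Chsy3 were low, averaging 1.45 in vehicle livers, 1.86 at 20 mg/kg and 1.43 at 60 mg/kg. None of the 9 falls remained called without the narrow arrays, although each kept its direction.

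Stellate cell, matrix and endothelial genes had mostly negative differences. Pdgfra, a platelet-derived growth factor receptor of stellate cells and fibroblasts, was at 5.53, 5.43, 5.04, 5.09 and 5.41 at 60 mg/kg, against 5.95, 5.80, 5.86, 5.79 and 5.69 at 20 mg/kg, a fall of 0.52 ± 0.11 (adjusted p = 0.0391). The call was lost in 8 of the 10 fits with an array left out. Pdgfra was the called member of 43 stellate cell and matrix genes, against 0.0563% of all genes called lower. Of the 43, 19 were lower at an unadjusted p under 0.05 and none higher, against 7.91% of all genes lower, and 10 had all 60 mg/kg arrays below all 20 mg/kg arrays, against 1.93% of all genes. The list median was -0.18. Sparc, a matrix-binding glycoprotein, was at 7.89, 7.61, 7.59, 7.77 and 7.68 at 60 mg/kg, against 8.10, 8.24, 8.28, 8.37 and 8.45 at 20 mg/kg, which did not pass (adjusted p = 0.0698). The proteoglycan genes Dcn and Lum differed by -0.51 ± 0.18 and -0.79 ± 0.40 (adjusted p = 0.261 and 0.438). In whole liver, fewer cells of a type and less RNA per cell cannot be told apart.

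None of 24 sinusoidal endothelium markers was called, yet 12 were lower at an unadjusted p under 0.05, against 7.91% of all genes, and 21 of 24 differences were negative, with a median of -0.23. Bmp2, a signal that endothelial cells send to hepatocytes, differed by -0.48 ± 0.17 (adjusted p = 0.253), the receptor gene Gpr182 by -0.39 ± 0.12 (adjusted p = 0.174), Ramp2 by -0.46 ± 0.18 and Ehd3 by -0.38 ± 0.15. The mean of the list was 5.55, 5.47, 5.28, 5.46 and 5.16 at 60 mg/kg, against 5.58, 5.55, 5.55, 5.64 and 5.61 at 20 mg/kg. The lowest 2 values belonged to the narrow arrays. Without the narrow arrays 3 endothelial genes were lower at that level and the median was -0.11, and 11 stellate and matrix genes were lower, with a median of -0.16. Of all 14217 genes, 472 were lower at that level in the same fit. Among 28 Kupffer cell and macrophage markers none was called, and 3 were lower at an unadjusted p under 0.05, a share near the 7.91% of all genes. At that level 1 was higher, against 5.68% of all genes. Of the 28 differences 9 were positive, and the largest rise, 0.46, exceeded the largest fall, -0.39, in size. The median of the 28 markers was -0.13, with -0.05 without the narrow arrays and -0.07 with centred and interquartile-scaled arrays. Their mean level was 6.18 to 6.42 at 60 mg/kg, against 6.35 to 6.60 at 20 mg/kg. Adgre1 and Csf1r, 2 defining macrophage receptors, differed by -0.39 ± 0.15 and -0.31 ± 0.11, neither of which passed (adjusted p = 0.29 and 0.259).

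**Figure D3:**
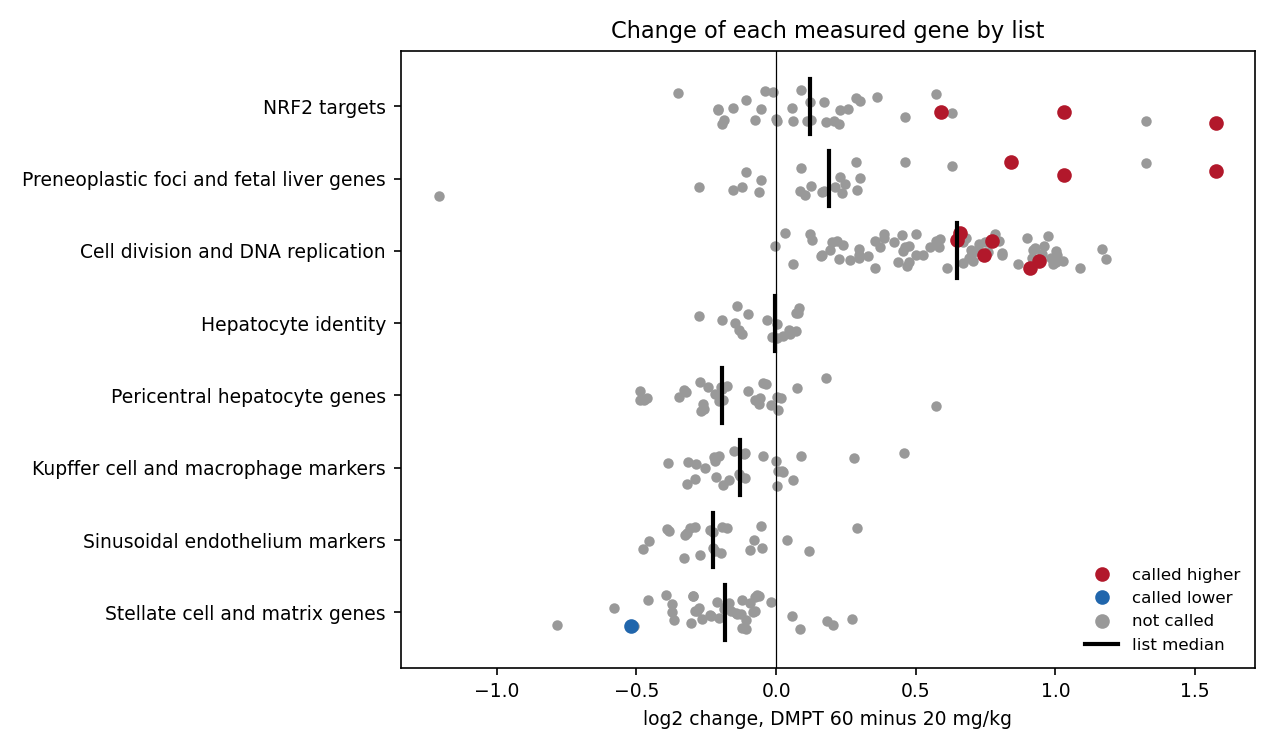
Log2 change between 60 and 20 mg/kg (horizontal axis) of every measured gene in 8 lists (rows), with called genes in red (higher) or blue (lower) and the list median as a bar. Cell division genes had a median of 0.65 and sinusoidal endothelium markers a median of -0.23, while the 18 hepatocyte identity genes had a median of -0.01, or 0.20 with centred and interquartile-scaled arrays.

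The 18 hepatocyte identity genes, which check the tissue label, had a median difference of -0.01, none called, and list means between 10.71 and 10.85 at 60 mg/kg, against 10.73 to 10.90 at 20 mg/kg. These genes were bright on every array of both doses. With centred and interquartile-scaled arrays their median was 0.20, with 14 of 18 positive and none called, while the median over all genes was 0.005. Of 31 pericentral genes, which surround the central vein and depend on Wnt signals, none was called and 10 were lower at an unadjusted p under 0.05, against 7.91% of all genes, with a median of -0.19. At that level 1 was higher, against 5.68% of all genes. Of the 31 differences 6 were positive, and the largest rise, 0.57, exceeded the largest fall, -0.49, in size. Without the narrow arrays 6 were lower at that level, against 472 of all 14217 genes, and the median was -0.15. With centred and interquartile-scaled arrays 4 were lower, against 859 of all 14217 genes, and the median was -0.09. Znrf3, a feedback inhibitor of Wnt signalling, was at 5.08, 5.33, 4.88, 5.10 and 4.67 at 60 mg/kg, against 5.52, 5.54, 5.64, 5.52 and 5.28 at 20 mg/kg (adjusted p = 0.0883). Avpr1a, a vasopressin receptor, differed by -0.49 ± 0.16 and the ornithine aminotransferase gene Oat by -0.47 ± 0.20, neither passing. The 31 periportal and urea cycle genes had a median of -0.03.

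Preneoplastic focus and fetal liver genes, 26 in number, included 3 called rises, Akr7a3, Nqo1 and Fabp5, the first 2 of which belong to the NRF2 list as well. Of all genes, 0.134% were called higher. Of the 26, 11 were higher at an unadjusted p under 0.05, against 5.68% of all genes, and 6 had all 60 mg/kg arrays above all 20 mg/kg arrays, against 0.682% of all genes. The list median was 0.19. Without 60 mg/kg replicate 5, or without 20 mg/kg replicate 1 or 2, 1 of them was called. Their mean was between 6.47 and 6.59 at 60 mg/kg, against 6.17 to 6.38 at 20 mg/kg, without overlap. The fetal noncoding RNA H19 ran the other way, with 9.81, 8.11, 9.18, 7.80 and 7.51 at 60 mg/kg, against 9.02, 10.06, 10.08, 9.89 and 9.38 at 20 mg/kg. It did not pass (adjusted p = 0.361), and both doses were above the vehicle mean of 6.65.

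**Figure D4:**
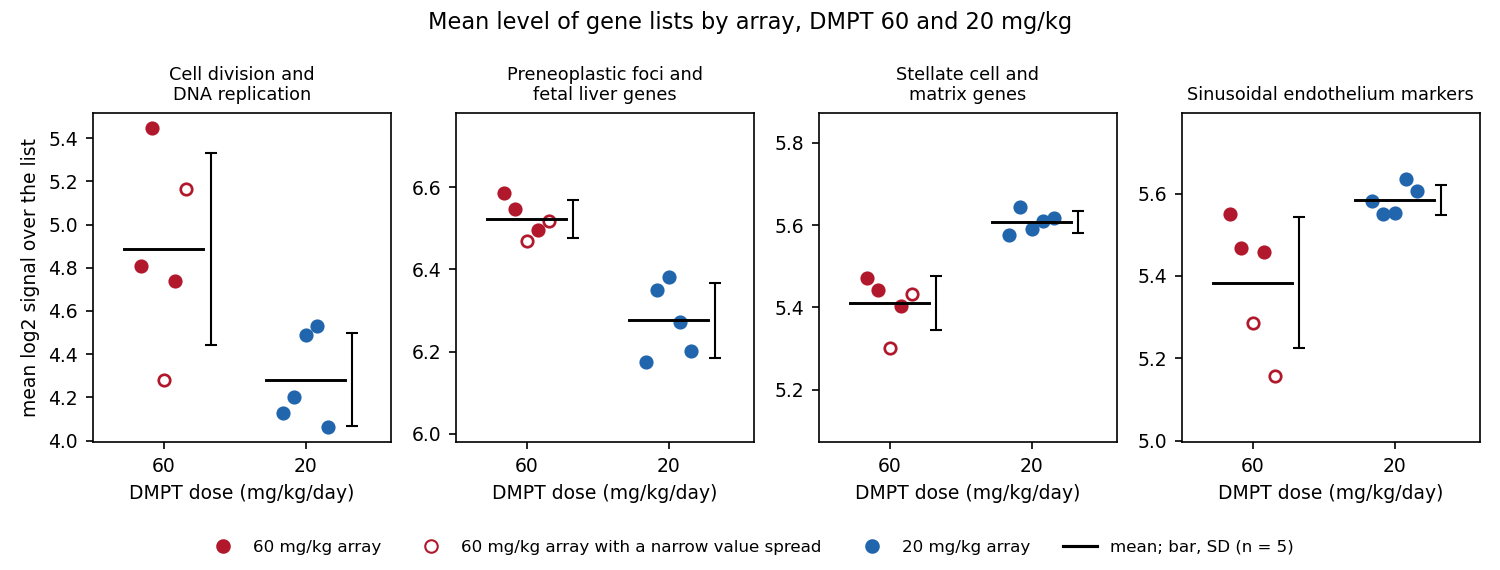
Mean log2 signal over the genes of 4 lists (vertical axis) on each array at 60 mg/kg and at 20 mg/kg (horizontal axis), with group means and SD (n = 5) and open circles for the narrow arrays. Stellate and matrix genes did not overlap, with 5.30 to 5.47 at 60 mg/kg against 5.58 to 5.64 at 20 mg/kg, while cell division genes overlapped through 60 mg/kg replicate 3, at 4.28.

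Several single genes showed large differences that did not pass. A2m, the acute phase inhibitor alpha-2-macroglobulin, was at 5.89, 4.47, 4.68, 4.56 and 5.07 at 60 mg/kg, against 5.39, 6.48, 6.59, 6.18 and 5.80 at 20 mg/kg (adjusted p = 0.162). Inmt, an amine N-methyltransferase, was at 4.24, 3.76, 5.03, 4.27 and 4.29 at 60 mg/kg, against 6.56, 5.47, 4.51, 5.10 and 5.46 at 20 mg/kg (adjusted p = 0.132). The taurine transporter Slc6a6 differed by -0.90 ± 0.24 (adjusted p = 0.115) and the G1 cyclin Ccnd1 by -0.64 ± 0.19 (adjusted p = 0.157). The stress factor Atf3 ranged from 5.09 to 6.40 at 60 mg/kg, against 2.99 to 6.74 at 20 mg/kg. No member was called among 49 integrated stress genes, 26 p53 targets, 43 interferon-stimulated genes, 39 proteasome subunits or 42 cytosolic ribosomal proteins, whose medians were -0.06, 0.04, 0.04, -0.05 and 0.03.

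The same dose step was measured for p-toluidine, the primary amine that lacks the methyl groups DMPT carries on its nitrogen. The arrays of both chemicals had different medians (3.53 to 3.61 for DMPT and 2.73 to 2.81 for p-toluidine), so levels were not compared between chemicals, only the steps. In the p-toluidine step 33 of 31042 probe sets (0.106%) were called, 18 higher (0.058%) and 15 lower (0.0483%). Of these, 5 were also called for DMPT, which is 5 of 34 and 5 of 33, and they were Akr7a3, Nqo1, Ptgr1, Isyna1 and Serpina4. Of the 34 DMPT calls, 33 had the same sign in the p-toluidine step, and 17 of these had an unadjusted p under 0.05 there. That level was met in either direction by 7.71% of all probe sets. The share of all probe sets with the same sign in both steps was not counted, and the steps correlated at r = 0.377 across all probe sets.

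The difference between both steps was tested directly in a fit of all 60 arrays. No probe set passed (smallest adjusted p = 0.848), and 1714 (5.52%) had an unadjusted p under 0.05. Akr7a3 changed by 1.57 with DMPT and 1.36 with p-toluidine, a difference of 0.22 with a 95% interval from -0.46 to 0.89. Nqo1 changed by 1.03 with DMPT and 1.07 with p-toluidine, with an interval from -0.59 to 0.52. For Ptgr1 the DMPT step of 0.59 was below the p-toluidine step of 1.06, and the interval of the difference, -0.90 to -0.03, left out 0 (adjusted p = 0.9). Gstp1 changed by 1.32 with DMPT and by a called 2.98 with p-toluidine. The difference of -1.66 had an interval from -2.64 to -0.67 but did not pass (adjusted p = 0.898).

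The cell division genes had a median step of 0.65 for DMPT and 0.29 for p-toluidine, where 19 of 77 were higher at an unadjusted p under 0.05, against 4.6% of all genes, and none was called. Mcm5 changed by 0.65 with DMPT and 0.13 with p-toluidine, and the difference of 0.52 had an interval from 0.16 to 0.88 (adjusted p = 0.898). Top2a changed by 0.91 with DMPT and 0.51 with p-toluidine, with an interval from -0.18 to 0.97. Fabp5 changed by 0.84 with DMPT and 0.21 with p-toluidine, and Emp1 by -0.62 with DMPT and -0.09 with p-toluidine. Their intervals, 0.15 to 1.11 and -0.85 to -0.23, also left out 0. Counted over the 34 probe sets, 15 intervals left out 0, while 5.52% of all probe sets had an unadjusted p under 0.05. Klf7 had the opposite sign with p-toluidine (0.03). The 34 were chosen by the DMPT step, so these 15 intervals and the count with a larger DMPT value, 29, are in part fixed by that choice. No difference between both chemicals passed the threshold, and these intervals do not show that they act alike.

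**Figure D5:**
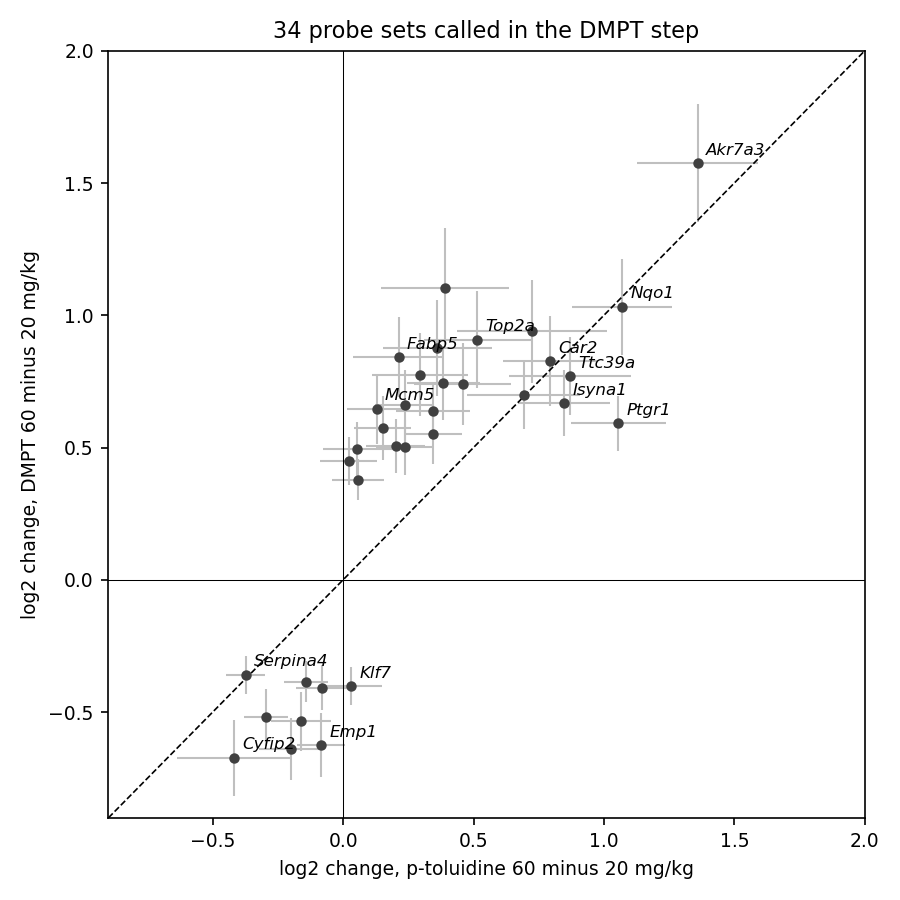
Log2 change between 60 and 20 mg/kg with DMPT (vertical axis) against the same change with p-toluidine (horizontal axis) for the 34 probe sets called with DMPT, bars SE, dashed line equal change. Akr7a3 and Nqo1 lie near the line, at 1.57 and 1.36 and at 1.03 and 1.07, while Fabp5, at 0.84 and 0.21, lies above it.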

How the data were processed

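The deposited values are log2 signals of 31099 Affymetrix probe sets on 60 arrays, made with RMA per the submitters' processing notes; the sources used here name no version and no background or summary settings. DMPT and p-toluidine arrays have different medians and were analysed in separate fits. RNA (100 ng) was amplified and 12.5 ug hybridized for 16 h, per the labels' protocols.

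After leaving out 57 control probe sets, 31042 were fitted with limma 3.58.1 (R 4.3.3; group means, eBayes, Benjamini-Hochberg adjustment over all probe sets) on the 30 DMPT arrays, with 60 minus 20 mg/kg as the contrast. The p-toluidine step used its own 30 arrays and the difference of steps all 60. A gene is its brightest probe set with a single symbol (14217 genes; 20826 probe sets had 1 symbol in GEO's platform annotation, 436 several and 9780 none). Errors are SE of the log2 change; precision is limited by 5 arrays per group. On simulated data of this contrast (31042 probe sets), 81% of 0.5 and 98% of 1 log2 unit changes were recovered, 100 of each, with 7 false calls. The simulated noise was independent between probe sets and held no narrow arrays, so these shares need not hold for the real arrays.

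Named genes are the 15 largest called rises, the called falls filled up to 10 by smallest p, and up to 4 members of each of 43 lists with the largest change. The contrast, the lists and the named genes' rule were chosen with earlier results of these data known. Promoters come from RefSeq tables of build GRCr8, which held 21 of the 28 called genes. Alternatives were other array sets and normalizations, a replicate block, covariates for RNA 3′ bias, and each array left out.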

Additional observations from a re-analysis of the deposited data

Results flagged for a closer look

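Of 134 gene and dose groups checked, each of 5 arrays, 8 held an array that stood apart from the other 4 by Dixon's criterion, which chance meets in about 1 of 20 groups. Akr7a3 was 10.01 on 60 mg/kg replicate 3 (others 10.56 to 10.65) and 7.999 on 20 mg/kg replicate 5 (others 9.02 to 9.26). Also at 60 mg/kg, replicate 3 stood apart for Ccdc92 at 4.355 (others 4.03 to 4.09) and for Chsy3 at 1.164 (others 1.46 to 1.53). At 20 mg/kg, replicate 4 stood apart for Klf7 at 2.869, Cyp1b1 at 3.056 and Cenpa at 2.163, and replicate 1 for Tube1 at 3.34 (others 3.74 to 3.81). 60 mg/kg replicate 3 is one of the narrow arrays, and its part in these values was not tested.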

How the results depend on the processing

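All 34 called probe sets kept their direction in every alternative that tested them, but the number called moved, and the cause was not tested. Against 34 calls (25 higher, 9 lower), the fit of the 10 arrays alone gave 21 (8 higher), the fit of all 60 arrays 84 (45 higher, 39 lower), eBayes with trend and robust settings 59 (25 lower), array weights 77 (55 higher, 22 lower), arrays centred on their medians 6 (4 higher, 2 lower) and a beta-actin 3′ bias covariate 103 (83 higher, 20 lower). Of these calls, 10, 28, 31, 30, 6 and 34 were among the 34. Leaving out 1 DMPT array gave 1 to 167 calls, with 1 to 147 higher and 0 to 20 lower. Without the narrow arrays 1 probe set was called lower, as with a Gapdh 3′ bias covariate, chosen after seeing the data. A threshold of 0.1, also chosen then, gave 151 calls (88 higher, 63 lower). Averaging all probe sets of a gene gave 48 called genes in place of 27. The p-toluidine step had 33 calls, 5 in the fit of its 10 arrays alone and 10 to 53 with 1 array left out. The difference of steps had 0 calls in limma under every alternative, 953 to 2499 probe sets having an unadjusted p under 0.05. For the single genes named, 325 values under an alternative lost the call, 24 gained one, 1111 did neither, and no called value changed sign. Quantile normalization, centring with interquartile scaling and a filter on dim probe sets kept the count within 1.5 times.

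Replicate numbers are shared by both doses but did not pair the arrays: deviations of same-numbered arrays correlated between -0.01 and 0.06. With a replicate block 43 probe sets were called, 27 of them among the 34. Of the measures of RNA 3′ bias, the Gapdh 3′ minus 5′ difference was -0.01 ± 0.05 at 60 mg/kg and -0.08 ± 0.04 at 20 mg/kg (SD, n = 5; exact two-sided permutation p = 0.0476, adjusted 0.19 over 4 measures). The number of arrays limits the precision.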
